A study of Mus musculus with 6 samples.

Results

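Serum amyloid A and other acute-phase genes were followed in mouse testes that over-express aromatase. The group holds 10 genes: Saa1, Saa2, Saa3, Saa4, Lcn2, Hp, Orm1, Orm2, Chi3l1 and Lbp. It is 10 of the 34844 gene names on the array, and its members are all non-control probes that carry these names, 11 probes in all. The genes were chosen from measured values of the same 6 arrays, so their levels and differences are given as a description, with no p-value.

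The acute-phase response is the change in secreted plasma proteins that follows infection or tissue damage. Interleukin-1, interleukin-6 and tumour necrosis factor act through the transcription factors NF-kB, C/EBP and STAT3 on liver cells, which then release serum amyloid A, haptoglobin, orosomucoid and lipopolysaccharide-binding protein. Several of these genes, Saa3 and Lcn2 among them, are also switched on outside the liver, in macrophages, epithelia and fat.

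The study measured total RNA of single whole testes from male mice of 5 months on the C57BL/6 background. The AROM+ group (3 testes) carried an aromatase over-expression transgene (aromatase makes oestrogens from androgens), and the control group (3 testes) was wild type (WT), with no treatment in either. The labels name neither the promoter of the transgene nor the founder line. Each testis went on 1 one-colour Agilent array with Cy3 label, and the study asked for genes up- or down-regulated by the transgene.

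On each array 76.6% to 80.6% of spots were well above background, and no spot was saturated. Across the probes tested, arrays correlated at 0.994 to 0.996 within WT, 0.988 to 0.992 within AROM+ and 0.962 to 0.983 between the groups. The marker lists of the testis were measured, with all 10 germ cell genes, all 9 Sertoli cell genes and 7 of 8 Leydig cell genes above background. The remaining Leydig cell gene, Insl3, had no probe. All WT arrays lie in 1 row of the slide and all AROM+ arrays in the other row, so slide position and genotype cannot be told apart. In whole tissue, a change in the number of cells of a type and a change in RNA per cell cannot be told apart either.

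The results turn on a few probes, whose sequences are shown because each member except Lbp is measured by 1 probe and because the serum amyloid A and orosomucoid genes have close relatives. They are written 5′ to 3′ as the array files give them, in lower case with no part marked.
Saa1 probe: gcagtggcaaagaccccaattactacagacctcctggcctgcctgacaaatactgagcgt
Saa2 probe: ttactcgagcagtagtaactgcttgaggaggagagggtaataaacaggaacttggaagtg
Saa3 probe: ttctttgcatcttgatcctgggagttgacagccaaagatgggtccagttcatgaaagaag
Saa4 probe: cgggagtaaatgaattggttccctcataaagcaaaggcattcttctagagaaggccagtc
Orm1 probe: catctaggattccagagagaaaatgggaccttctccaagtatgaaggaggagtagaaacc
Orm2 probe: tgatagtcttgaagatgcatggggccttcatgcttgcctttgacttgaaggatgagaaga
Lbp probe: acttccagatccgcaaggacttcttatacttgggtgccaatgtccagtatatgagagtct

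The probes of Saa3 (chr7:53970389-53970448), Saa4 (chr7:53983662-53983721) and Saa1 (chr7:53996070-53996129) lie on the minus strand, and that of Saa2 (chr7:54009622-54009681) on the plus strand, in the mouse build mm9. The Orm1 probe (chr4:63006483-63007090) spans 608 bases of the genome with its 60 bases, the Orm2 probe lies at chr4:63024979-63025038, and the Lbp probe (chr2:158154142-158157684) spans 3543 bases. All 3 are on the plus strand. Among the member probes the highest ungapped identity of a pair was 52.2%, between Saa3 and Orm1. The longest run of bases that any member probe shared with a probe of another gene on the array was 16. These figures compare probes with probes, and the transcripts of the paralogs were not used here.

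Levels are log2 intensities relative to the 75th percentile of each array, and differences are AROM+ minus WT with the standard error (SE) of limma over 3 arrays per group. Testing required a signal well above background in every testis of WT or of AROM+, which 9 of the 10 genes met, each by 1 probe. Chi3l1 was not. At an adjusted p under 0.05 (limma, Benjamini-Hochberg over 42637 probes), 3 of the 9 genes, Saa3, Lbp and Saa1, lay higher in AROM+, where the background over all probes tested was 14.0%. A further 3, Orm1, Saa4 and Saa2, lay lower, against a background of 30.4%. Orm1 and Saa4 met the requirement through WT alone, the group where they are high, and among probes above background on all 6 arrays Saa2 was the 1 member lower. The lower count was also 1 when WT replicate 1, WT replicate 2 or AROM+ replicate 1 was left out. Lcn2, Hp and Orm2 were not past the threshold. The AROM+ and WT values did not overlap in 6 of the 9 genes (58.1% of all probes), 3 higher (17.7%) and 3 lower (40.3%). Nothing is read from these counts, since the genes were chosen with this contrast known. The median difference was −0.38 over the 9 genes and −0.19 over all probes tested.

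**Figure D1:**
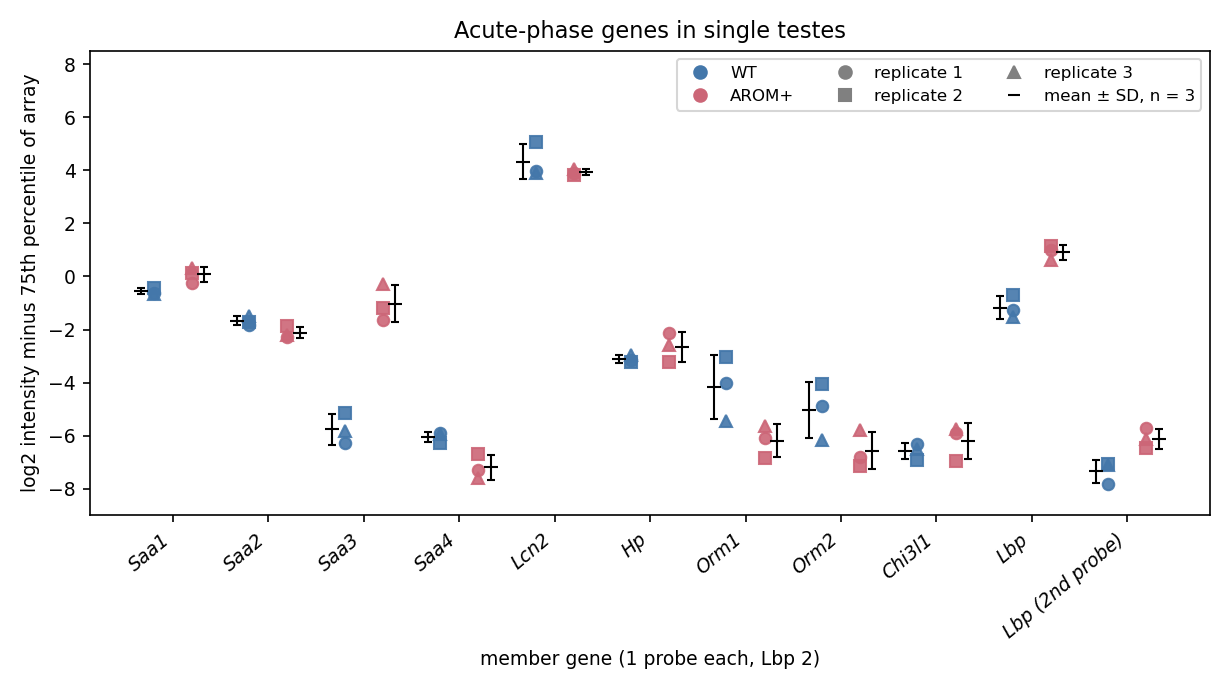
Level of each member probe in every testis, as log2 intensity minus the 75th percentile of the array, with WT in blue, AROM+ in red and the mean ± SD of 3 testes beside each group. The AROM+ points lie above all WT points for Saa1, Saa3 and both Lbp probes, below them for Saa2, Saa4 and Orm1, and among them for Lcn2, Hp, Orm2 and Chi3l1; heights of different probes are not comparable.

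Saa3, an inflammatory serum amyloid A made outside the liver by macrophages and other cells, differed most among the members. Its level was −6.29, −5.13 and −5.82 in the WT testes and −1.63, −1.20 and −0.27 in the AROM+ testes. The lowest AROM+ testis stood far above the highest WT testis. The difference was 4.72 ± 0.41 (SE), or 26.3-fold, rank 29 of the 42637 probes tested. In unscaled processed intensity the WT spots read 57.6, 105.4 and 75.1, and the AROM+ spots 1763, 1937 and 3540. All 6 spots were well above background, so the fold is measured on both sides, although the WT spots are dim. Under normexp correction of the background, where an offset is added, the difference was 3.54, and across the other settings tried it lay between 4.33 and 5.02.

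Saa1, one of the liver-type serum amyloid A proteins that travel in plasma on high-density lipoprotein, was modestly higher. It read −0.61, −0.43 and −0.65 in WT and −0.25, 0.14 and 0.33 in AROM+. The groups did not overlap, but the AROM+ testis nearest to WT was only a little above it. The difference was 0.64 ± 0.16, or 1.56-fold, and leaving out AROM+ replicate 2 (0.61), WT replicate 3 (0.60) or WT replicate 1 (0.62) ended the call.

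Saa2, the other liver-type form, lay the other way. Its level was −1.82, −1.71 and −1.49 in WT and −2.27, −1.88 and −2.19 in AROM+. AROM+ replicate 2 almost met the lowest WT testis. The difference was −0.44 ± 0.14, and it lost the threshold when any of the arrays except AROM+ replicate 2 was left out (−0.51 to −0.35), in the authors' deposited log2 values (−0.41) and without a filter on dim probes. Set against the median of −0.19 over all probes, Saa2 was close to the shift of the whole distribution.

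Saa4, the constitutive serum amyloid A that changes little in inflammation, was lower and near the detection limit. It read −5.91, −6.27 and −5.95 in WT, where all 3 spots were well above background, and −7.29, −6.67 and −7.60 in AROM+, where 1 spot was. The groups did not overlap, and the difference was −1.14 ± 0.24. It was −0.46 with normexp background correction and −1.40 to −0.94 when arrays were left out, so its size depends on how background is handled.

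The 4 genes form a cluster on chromosome 7. In order along the chromosome in the mm9 coordinates of the probes stand Saa3, Saa4 13.3 kb further on, Saa1 at 25.7 kb and Saa2 at 39.2 kb. Higher and lower members alternate along this order. The calls of Saa1 and Saa2 were lost in some settings, however, and Saa4 was near the detection limit. The nearest measured protein-coding genes outside the cluster were Saal1 (−0.43 ± 0.10, adjusted p = 0.0151 by limma) and Hps5 (−0.24 ± 0.10, adjusted p = 0.0865). Neither was higher in AROM+.

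**Figure D2:**
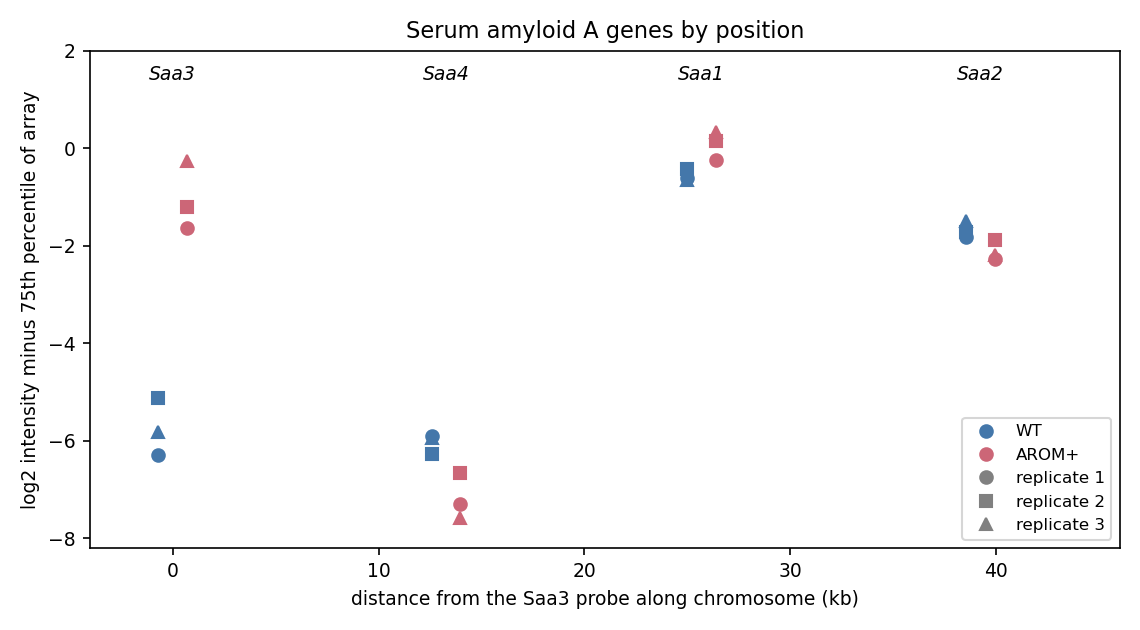
Levels of the 4 serum amyloid A genes in each testis (log2 intensity minus the 75th percentile of the array), placed by the distance of their probe from the Saa3 probe in kb. Saa3 at 0 kb and Saa1 at 25.7 kb have AROM+ points above WT, while Saa4 at 13.3 kb and Saa2 at 39.2 kb have AROM+ points below WT.

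The starts of these genes are printed because neighbours of like sequence differed in direction. Each run holds 250 bases before and 50 after the gene start in RefSeq (GRCm38.p6), on the strand of the gene: Saa1 chr7:46742931-46743230 (minus), Saa2 chr7:46751583-46751882 (plus), Saa3 chr7:46715627-46715926 (minus) and Saa4 chr7:46732554-46732853 (minus). Capitals mark matches to the C/EBP motif TTGCNNAA on either strand.
Saa1 promoter: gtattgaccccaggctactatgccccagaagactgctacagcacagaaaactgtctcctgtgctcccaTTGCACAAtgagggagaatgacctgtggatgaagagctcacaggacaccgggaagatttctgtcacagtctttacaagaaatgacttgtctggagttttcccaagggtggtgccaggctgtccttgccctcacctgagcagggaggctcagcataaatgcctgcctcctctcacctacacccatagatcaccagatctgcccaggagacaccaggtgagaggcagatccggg
Saa2 promoter: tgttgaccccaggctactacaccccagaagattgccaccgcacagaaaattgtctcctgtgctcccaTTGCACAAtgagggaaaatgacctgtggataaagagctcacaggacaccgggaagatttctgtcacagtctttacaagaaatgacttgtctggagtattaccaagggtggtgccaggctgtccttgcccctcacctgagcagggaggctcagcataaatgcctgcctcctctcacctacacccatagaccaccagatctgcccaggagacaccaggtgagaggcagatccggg
Saa3 promoter: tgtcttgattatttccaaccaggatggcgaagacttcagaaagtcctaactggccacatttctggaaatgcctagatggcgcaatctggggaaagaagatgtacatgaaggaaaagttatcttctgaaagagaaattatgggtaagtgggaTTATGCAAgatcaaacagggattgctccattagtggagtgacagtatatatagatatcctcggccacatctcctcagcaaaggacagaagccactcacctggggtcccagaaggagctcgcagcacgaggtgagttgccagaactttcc
Saa4 promoter: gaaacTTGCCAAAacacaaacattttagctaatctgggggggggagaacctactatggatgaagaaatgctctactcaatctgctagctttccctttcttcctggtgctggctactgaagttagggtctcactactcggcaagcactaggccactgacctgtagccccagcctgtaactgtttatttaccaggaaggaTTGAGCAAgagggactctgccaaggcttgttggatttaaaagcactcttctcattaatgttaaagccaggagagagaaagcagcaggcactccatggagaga

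Saa1 and Saa2 face away from each other, and their promoters were 95.3% identical over 301 alignment columns, with the same C/EBP match at −182 to −175 in Saa1 and −183 to −176 in Saa2 (0 being the gene start). Their differences had opposite signs, 0.64 and −0.44. The coding sequences of these genes are close relatives too, so each probe may read some RNA of the other, which was not tested. Saa3 has its match at −99 to −92, and Saa4 has matches at −245 to −238 and −52 to −45. The promoter table held 7 of the 10 members (Chi3l1 as Chil1), and 6 of these 7, Saa1, Saa2, Saa3, Saa4, Lcn2 and Orm2, had a C/EBP match, which 10.8% of all 32851 RefSeq promoters of this length have. The only NF-kB match (by the consensus, which 8.46% of promoters hold) was in Chi3l1, and the only AP-1 match (TGANTCA, 7.81%) in Orm2. None of the 7 held the STAT motif TTCNNNGAA (8.30%) or the oestrogen response element by its full palindrome (0.07%). All motifs were searched on both strands, and a match is a run of letters, not a bound site.

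Lbp encodes the plasma protein that hands bacterial lipopolysaccharide to CD14. Its main probe read −1.27, −0.70 and −1.54 in WT and 1.01, 1.13 and 0.61 in AROM+, with every AROM+ testis above every WT testis. The difference was 2.09 ± 0.24 (4.24-fold), and it stayed between 1.90 and 2.32 in all 15 other settings. A second Lbp probe (chr2:158136176-158136235) was dim, with no WT spot and 2 AROM+ spots well above background, and was not tested. It read −7.83, −7.06 and −7.10 in WT and −5.72, −6.47 and −6.14 in AROM+, and with no WT spot well above background no difference is given. Bpi, the neighbouring gene and a relative of Lbp that neutralises endotoxin, was lower (−0.62 ± 0.11, adjusted p = 0.00771), and Ralgapb on the other side was at 0.13 ± 0.10 (adjusted p = 0.318).

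Orm1 and Orm2 encode orosomucoid, a small acid glycoprotein of plasma that binds drugs and steroids. Orm1 read −4.02, −3.04 and −5.44 in WT and −6.10, −6.83 and −5.62 in AROM+. The groups did not overlap, though the lowest WT testis was close to the highest AROM+ testis. The difference was −2.02 ± 0.60, and only 0.0563% of probes had a more negative one. It lost the threshold when WT replicate 1 was left out (−1.94), and likewise WT replicate 2 (−1.45), AROM+ replicate 1 (−2.06) and also AROM+ replicate 2 (−1.69). It lost it without a filter on dim probes too, and was −1.29 with normexp background correction.

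Orm2 read −4.86, −4.04 and −6.14 in WT and −6.78, −7.13 and −5.79 in AROM+, where 1 spot was well above background. WT replicate 3 lay below AROM+ replicate 3, so the groups overlapped. The difference of −1.55 ± 0.56 was not past the threshold, and it was past it without WT replicate 3 (−2.12), without AROM+ replicate 3 (−1.94) or with a trend in eBayes. With normexp background correction it was −0.78.

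The pair varied more between testes of 1 group than almost any other probe. Within WT the SD was 1.21 for Orm1 and 1.06 for Orm2, each larger than in 99.9% of probes tested, where the median SD was 0.14. The 3 WT testes spanned 5.28-fold for Orm1 and 4.28-fold for Orm2. Within each group they were ranked alike in both genes, WT replicate 2 highest and WT replicate 3 lowest, AROM+ replicate 3 highest and AROM+ replicate 2 lowest. In AROM+ only 2 Orm1 spots and 1 Orm2 spot were well above background, so the AROM+ order rests on values near the detection limit. Each gene was the nearest neighbour of the other among all named genes by the shape of its values (root mean square distance 0.29 over 6 arrays, each gene centred on its mean). The genes are near copies, so the probes may share signal. Orm3 lies between them and was lower with little spread, at −2.50, −2.15 and −2.59 in WT and −3.49, −3.20 and −3.29 in AROM+ (−0.92 ± 0.15, adjusted p = 0.00602). The flanking genes Akna (−0.54 ± 0.12, adjusted p = 0.0127) and Col27a1 (−0.30 ± 0.32, adjusted p = 0.469) differed less.

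**Figure D3:**
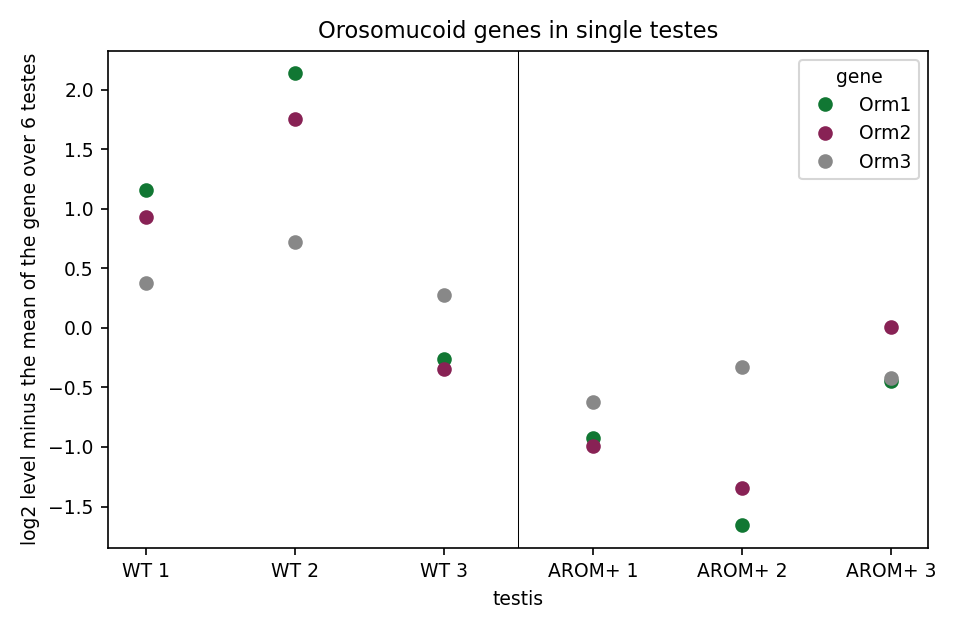
Levels of Orm1, Orm2 and Orm3 in each testis, each gene as its log2 level minus its own mean over the 6 testes. Orm1 and Orm2 rank the testes alike within each group and spread widely within WT (SD 1.21 and 1.06), and all 3 genes have lower AROM+ than WT means. In AROM+ only 2 Orm1 spots and 1 Orm2 spot were well above background.

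Lcn2 encodes lipocalin-2, which withholds iron from bacteria by binding their siderophores. Its probe (chr2:32240199-32240258, mm9) read 3.99, 5.08 and 3.88 in WT and 3.91, 3.82 and 4.07 in AROM+. Only WT replicate 2 stood apart, and the other 5 testes lay together. The difference of −0.38 ± 0.31 was not past the threshold in any setting tried, and without WT replicate 2 it was −0.003, against −0.60 without WT replicate 3 and −0.11 with quantile normalization. In unscaled intensity the probe gave 62835 to 124869 in WT and 62906 to 82229 in AROM+.

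Hp encodes haptoglobin, which binds free haemoglobin. Its probe (chr8:112099045-112099104, mm9) read −3.16, −3.20 and −2.94 in WT and −2.13, −3.24 and −2.59 in AROM+. Of the AROM+ testes, replicates 1 and 3 were above all WT testes and replicate 2 was below them. The difference of 0.45 ± 0.27 was not past the threshold, and without AROM+ replicate 2 it was 0.74 and past it, against 0.19 without AROM+ replicate 1.

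Chi3l1, a chitinase-like lectin that has lost enzyme activity, was at the limit of detection. Its probe (chr1:136086448-136086507, mm9) read −6.32, −6.92 and −6.51 in WT and −5.88, −6.96 and −5.73 in AROM+, with 2 of 3 spots well above background in each group. The values overlapped, and the gene just missed the filter that the other 9 passed.

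WT replicate 2 was the highest WT testis in 6 of the 9 genes tested (Saa1, Saa3, Lcn2, Orm1, Orm2 and Lbp), whereas it was the highest in 37.1% of all probes. Without that array the differences were 5.02 for Saa3 and 2.32 for Lbp, and −1.45 for Orm1.

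**Figure D4:**
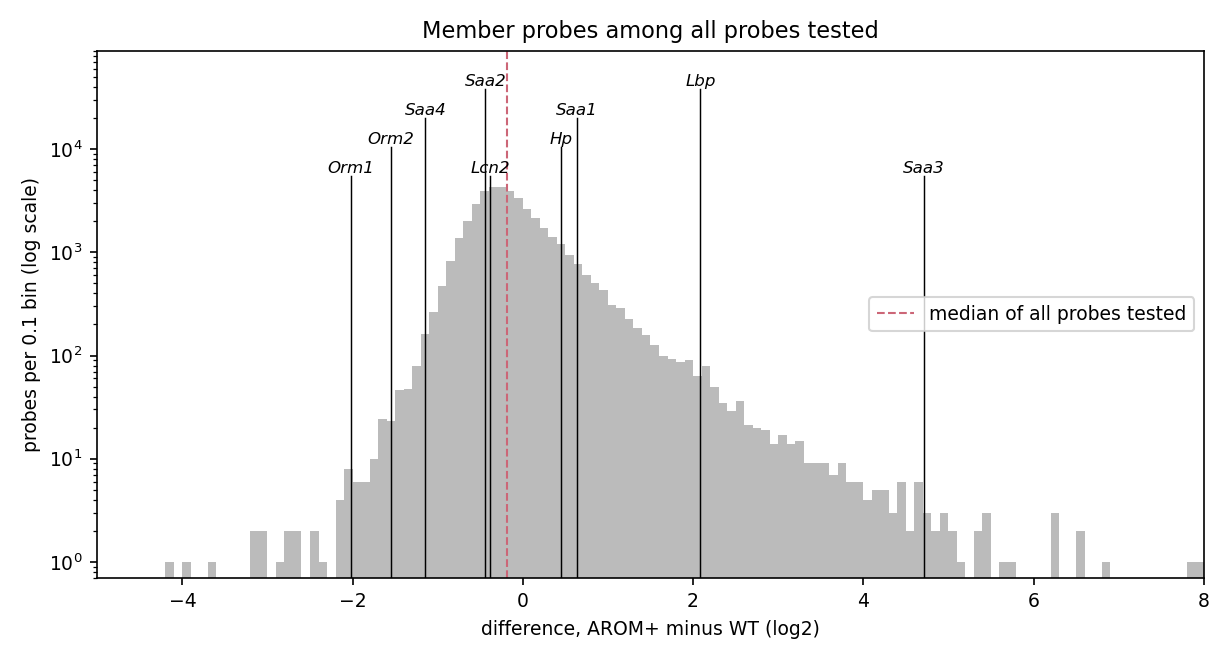
Number of probes per 0.1 of log2 difference (AROM+ minus WT, log scale) over the 42637 probes tested, with the 9 members tested as labelled lines and the median of all probes (−0.19) dashed. Saa3 at 4.72 and Lbp at 2.09 lie in the right tail, Orm1 at −2.02, Orm2 at −1.55 and Saa4 at −1.14 in the left tail, and Saa2, Lcn2, Hp and Saa1 in the bulk.

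Named genes with the most similar profile over the 6 arrays were sought for each member. Nearest to Saa3 were Itgax (distance 0.435), an integrin of dendritic cells and macrophages, Clec4e (0.46), a receptor for mycobacterial glycolipid, and Atf3 (0.46), a stress-induced transcription factor. Clec4e was well above background in no WT testis, so its WT values are not measured levels. Nearest to Lbp were Tbx3 (0.12), Slc38a1 (0.13) and Tfpi (0.14), and to Lcn2 Dppa2 (0.07), Sardh (0.14) and Garem2 (0.16). Saa1 was nearest to Bckdhb, Llgl1 and Tspan12 (0.04 to 0.06), Saa2 to Asap1, Oscar and Comp (0.03 to 0.04) and Saa4 to Marchf4, Tcerg1l and Atp2c2 (0.08 to 0.10). Hp was nearest to Robo2, Slfn10-ps and Il33 (0.09 to 0.10). After Orm2, Orm1 was nearest to Paqr6 (0.60) and Tmem40 (0.60), and after Orm1, Orm2 was nearest to Tmem40 (0.46) and Nxph3 (0.53). The serum amyloid A genes were not among each other's 3 nearest. The distances include the difference between the groups and describe 6 arrays.

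Genes listed as known regulators of acute-phase genes were higher more often than lower. Of 28 cytokines, receptors and transcription factors of the list, 23 were tested, 16 rose and 1 fell, with a median difference of 0.73 against −0.19 over all probes. The shares of 69.6% higher and 4.35% lower stand against 14.0% and 30.4% of all probes. Among probes above background on all 6 arrays, 15 genes of the list were higher and 2 lower. The largest rises were those of the C/EBP factors Cebpa (2.32 ± 0.25, 5.01-fold, adjusted p = 0.00334) and Cebpb (2.09 ± 0.18, 4.26-fold, adjusted p = 0.00225), of the feedback inhibitor Socs3 (1.80 ± 0.34, adjusted p = 0.00843) and of the oncostatin M receptor Osmr (1.52 ± 0.24, adjusted p = 0.0059). Cebpb read −0.81, −0.68 and −1.18 in WT and 1.46, 0.97 and 1.17 in AROM+, well apart. Il1a, which encodes interleukin-1 alpha, met the requirement for testing through AROM+ alone, the group where it is high. It was seen in AROM+ only and was at least 2.42-fold higher (adjusted p = 0.012). That bound sets the AROM+ mean against, on each WT array, the lowest probe well above background or the probe itself. With normexp, which adds an offset, the fitted log2 difference of Il1a was 0.45, less than this bound. Il1b was at −0.02 ± 0.19 (adjusted p = 0.931), and Il6, Tnf, Osm, Il17a and Hnf4a were not above background on all arrays of either group. Nfkbiz, a nuclear NF-kB partner, fell by 0.55 ± 0.18 (adjusted p = 0.0453), a call lost in 8 of the 15 settings, among them the omission of WT replicate 1 or 3 or of AROM+ replicate 2 or 3. Without AROM+ replicate 1 the count of falls was 2.

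Among other acute-phase genes of the kind that increases in inflammation, 20 of 26 were tested, 7 rose (35.0%, all probes 14.0%) and 3 fell (15.0%, all probes 30.4%), with a median of 0.20. Cd14 stands in this list and in that of receptors and partners, and counts as a rise in both. The complement genes C3 (3.09 ± 0.39, 8.54-fold, adjusted p = 0.0041) and Cfb (2.50 ± 0.38, adjusted p = 0.00554) rose, as did the protease inhibitors Serpina3n (2.95 ± 0.32, 7.73-fold, adjusted p = 0.00332) and Serpina3m (1.60 ± 0.37, adjusted p = 0.0155). The Serpina3 genes are close paralogs, and the call of Serpina3m was lost without WT replicate 3 (adjusted p = 0.053). With normexp Serpina3m was at 0.96. C3 read −0.65, 0.03 and −0.41 in WT and 3.26, 1.83 and 3.15 in AROM+. The 3 that fell were Orm3, the pentraxin gene Apcs (−0.77 ± 0.13, adjusted p = 0.00633) and the fibrinogen chain Fgg (−0.67 ± 0.22, adjusted p = 0.0436), which lost its call in 7 settings, among them the omission of WT replicate 1 or 3 or of AROM+ replicate 1 or 3. With normexp Apcs was at −0.49, and without AROM+ replicate 2 the count of falls was 5. Crp, the pentraxin that is the classic marker of inflammation in humans, was at −0.68 ± 0.30 (adjusted p = 0.1) and passed without AROM+ replicate 2, and Saa5 had no probe.

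Plasma proteins of the kind that decreases in inflammation held both rises and falls. Of 10, 9 were tested, 3 rose (33.3%, all probes 14.0%) and 2 fell (22.2%, all probes 30.4%), with a median of 0.19. Ahsg, which encodes fetuin-A (1.92 ± 0.23, 3.79-fold, adjusted p = 0.00379), the corticosteroid-binding globulin gene Serpina6 (1.21 ± 0.29, adjusted p = 0.0168) and the transferrin gene Trf (0.91 ± 0.13, adjusted p = 0.00522) rose. The apolipoprotein genes Apoa1 (−0.54 ± 0.11, adjusted p = 0.0115) and Apom (−0.52 ± 0.14, adjusted p = 0.0268) fell, Apom losing its call in 7 settings, among them normexp (−0.29) and the omission of WT replicate 1 or 2 or of AROM+ replicate 1 or 3, so that 1 fell in each of these. The call of Serpina6 was lost without WT replicate 1 and without WT replicate 3. Alb was not above background on all arrays of either group.

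Receptors and partners of the member proteins were mostly higher. Of 20 listed, 19 were tested, 12 rose (63.2%, all probes 14.0%) and 1 fell (5.26%, all probes 30.4%), with a median of 1.10. Fpr2 and Mmp9 met the requirement for testing through AROM+ alone, the group where they are high. Among probes above background on all 6 arrays, 10 genes of the list were higher and 1 was lower. On the path of Lbp, Cd14 (1.29 ± 0.22, adjusted p = 0.00672), Tlr4 (2.21 ± 0.32, 4.61-fold, adjusted p = 0.00505) and Ly96 (1.54 ± 0.18, adjusted p = 0.00374), which together bind and signal lipopolysaccharide, rose, while Bpi fell. Of the receptors reported for serum amyloid A, Tlr2 (1.60 ± 0.33, adjusted p = 0.0108) and P2rx7 (1.89 ± 0.17, adjusted p = 0.0026) rose, Fpr2 was seen in AROM+ only (at least 3.42-fold, adjusted p = 0.00979), and Scarb1 was at 0.39 ± 0.18 (adjusted p = 0.116). Scarb1 passed without AROM+ replicate 3 (0.59) and with quantile normalization, and its other probe was at 1.37. The P2rx7 probes ranged from −0.31 to 1.89. Ager, another receptor of the list, was at −0.48 ± 0.19 (adjusted p = 0.0806) and passed as lower with normexp (−0.33). Abca1, which loads lipid onto apolipoproteins, rose by 1.60 ± 0.11 (adjusted p = 0.0015). For Lcn2, the receptors Slc22a17 (0.01 ± 0.15) and Lrp2 (−0.17 ± 0.15) did not pass, and its binding partner Mmp9 was seen in AROM+ only (at least 4.15-fold, adjusted p = 0.0156). The call of Mmp9 was lost without WT replicate 3. For haptoglobin, the receptor Cd163 (1.10 ± 0.20, adjusted p = 0.0076) and the haem-degrading enzyme Hmox1 (1.31 ± 0.23, adjusted p = 0.00764) rose. With normexp the fitted log2 differences of Fpr2 and Mmp9 were 1.20 and 1.32, both under the bounds given, and those of Tlr4 and Cd163 were 1.13 and 0.39. The Chi3l1 receptors Il13ra2 (0.02 ± 0.14) and Tmem219 (−0.14 ± 0.10) did not pass.

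Of the relatives of Chi3l1, all 7 chitinase-like genes were tested, 1 rose (14.3%, all probes 14.0%) and 4 fell (57.1%, all probes 30.4%), with a median of −0.43. Ctbs, a lysosomal enzyme that trims chitobiose, rose by 0.95 ± 0.13 (adjusted p = 0.00497), and Ctbs was at 0.47 with normexp. Chit1 (−0.73 ± 0.13, adjusted p = 0.00732), Chia1 (−0.70 ± 0.15, adjusted p = 0.013), Chi3l7 (−0.69 ± 0.17, adjusted p = 0.0177) and Chid1 (−0.43 ± 0.13, adjusted p = 0.0357) fell. The call of Chid1 was lost in 6 of 15 settings, among them the omission of WT replicate 1 or 3 or of AROM+ replicate 1 or 3, and that of Chi3l7 without WT replicate 3, where 2 genes fell. Chil3, a macrophage lectin of mice, was at 0.32 ± 0.17 (adjusted p = 0.166) and passed without AROM+ replicate 3 (0.49).

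**Figure D5:**
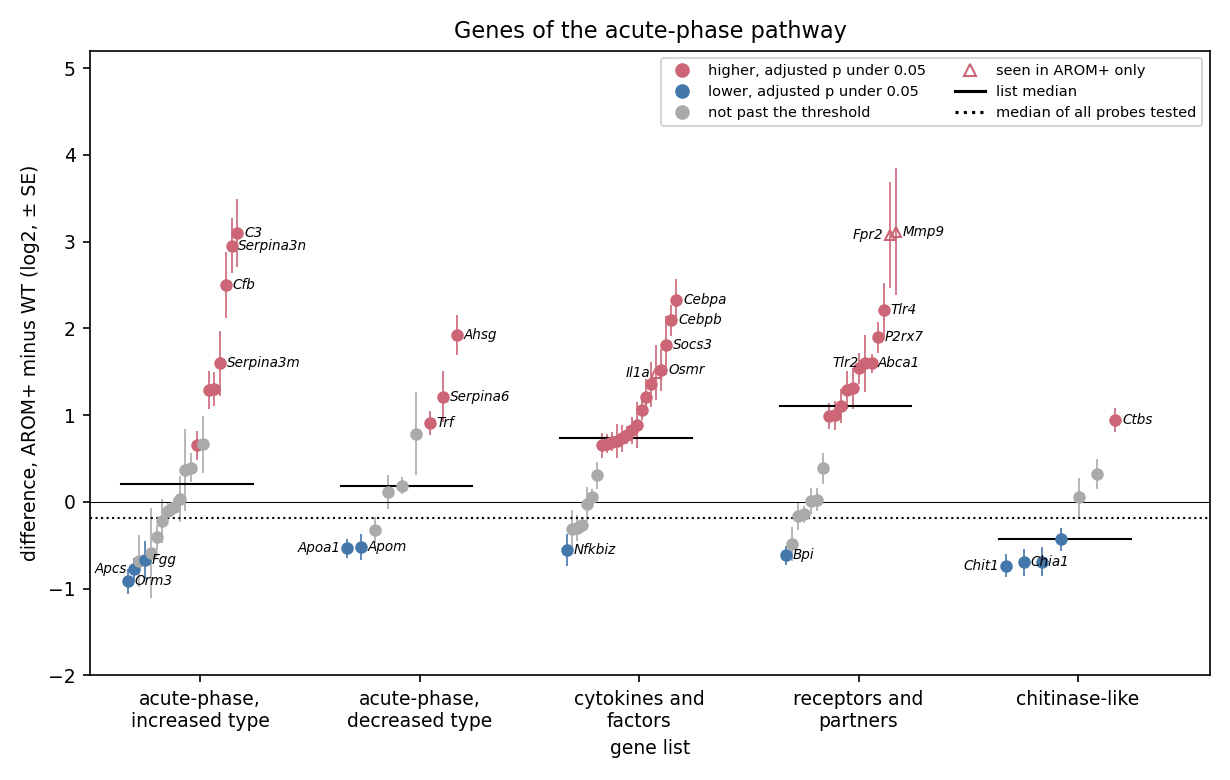
Difference AROM+ minus WT (log2, ± SE) of each tested gene in 5 lists, coloured by whether it passed an adjusted p under 0.05, with list medians as bars and the median of all probes as a dotted line. Medians are 0.20, 0.19, 0.73, 1.10 and −0.43 from left to right, and triangles mark genes seen in AROM+ only.

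Markers of cells that could carry these transcripts also differed between the groups, and their part in the results was not tested. Where the share of a list is given, it stands against 14.0% higher and 30.4% lower over all probes tested. Of 11 macrophage genes, 8 rose (72.7%), Lyz2 by 2.79 ± 0.36 and Cd68 by 2.40 ± 0.28 among them. Csf1r (−0.44 ± 0.12) and Aif1 (−0.33 ± 0.09) fell (18.2%). The 3 Csf1r probes ranged from −0.44 to 2.04, and those of Itgam, the brightest of the list at −0.09 ± 0.16, from −0.09 to 0.84. The summed level of a list, in units of the 75th percentile, is weighted towards its brightest probe and is given with and without it. For macrophage genes it was 49.2 to 63.7 in WT and 69.3 to 85.4 in AROM+, and 28.2 to 32.8 against 44.2 to 59.5 without Itgam.

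Of 12 neutrophil genes, 10 were tested. S100a8 (2.73 ± 0.67), S100a9 (1.69 ± 0.55) and Retnlg (3.41 ± 0.45) rose and Mpo fell by 0.87 ± 0.09. S100a8 and Retnlg were well above background in 3 AROM+ testes but only 1 WT testis each. They met the requirement for testing through AROM+ alone, and the sizes of their differences are not fully measured on the WT side. Ngp and Ltf were above background in no WT and 1 AROM+ testis each. The sum of 9.27 to 9.33 in WT and 8.33 to 8.64 in AROM+ is 90.6% to 94.1% Csf3r, the brightest (−0.15 ± 0.08). Without Csf3r it was 0.55 to 0.62 in WT and 0.54 to 0.81 in AROM+, so the groups overlapped.

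All 5 fibroblast genes rose (100%), with Lum at 3.27 ± 0.44 and the brightest, Dcn, at 0.81 ± 0.22. Their median was 1.76 and their sum 8.39 to 12.3 in WT and 18.2 to 27.0 in AROM+ (2.68 to 3.82 and 9.16 to 14.5 without Dcn). Of 6 endothelial genes, 5 rose (83.3%), Tie1 by 1.64 ± 0.29 among them. The brightest, Kdr, was the 1 that fell (16.7%), by 0.39 ± 0.09, though its probes ranged from −0.39 to 0.85. The endothelial sum was 2.15 to 2.41 in WT and 2.17 to 2.93 in AROM+, and 0.40 to 0.48 against 0.81 to 1.57 without Kdr.

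Among testis cells, 0 of 10 germ cell genes rose and 6 fell (60.0%, all probes 30.4%). Their median was −0.33, against −0.19 over all probes. Their sum was 191 to 258 in WT and 165 to 174 in AROM+ (139 to 145 and 117 to 121 without the brightest, Prm2). Of 7 Leydig cell genes tested 3 rose (42.9%), and of 9 Sertoli cell genes 2 rose (22.2%), and none of either list fell. The Leydig sum was 18.4 to 33.5 in WT and 27.0 to 42.3 in AROM+ (9.84 to 17.3 and 19.2 to 28.4 without the brightest, Cyp17a1). The Sertoli sum was 37.8 to 44.2 in WT and 37.1 to 51.4 in AROM+ (17.9 to 20.7 and 18.9 to 27.3 without the brightest, Clu).

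Of 10 hepatocyte genes, 8 were tested, and 1 rose (Ahsg) and 1 fell (Apoh, the brightest, −0.77 ± 0.14), 12.5% each. Alb and Hpx were not above background on all arrays of a group. The sum was 3.21 to 3.86 in WT and 2.45 to 2.97 in AROM+, but 0.97 to 1.08 and 1.13 to 1.30 without Apoh. Of 9 adipocyte genes, 8 were tested. Fabp4, which macrophages also express, rose by 4.28 ± 0.42 and Plin1 by 1.04 ± 0.26, 4 fell (the brightest, Lipe, by 0.65 ± 0.10), and Lep was below background on all arrays. Cidec, among those that fell, was well above background in 3 WT testes but only 1 AROM+ testis. It met the requirement for testing through WT alone. The adipocyte sum was 13.4 to 14.1 in WT and 11.2 to 12.9 in AROM+, and 5.95 to 6.71 against 5.99 to 8.56 without Lipe. Of 9 epididymal genes, Lcn5, Lcn8, Crisp4 and Adam7 were below background on all arrays, and 0 rose and 3 fell of the 4 tested. Of those that fell, Spinkl and Lcn9 were well above background in 3 WT testes but in 0 and 1 AROM+ testes. They met the requirement for testing through WT alone, the group where they are higher, so nothing is read from the count of falls. Rnase10, well above background in every testis, fell by 0.53 ± 0.11. The sum was 0.82 to 0.92 in WT and 0.57 to 0.68 in AROM+, of which Rnase10 made up 93.6% to 95.6%.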

How the data were processed

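Total RNA of 3 AROM+ and 3 WT whole testes, grouped by genotype from the labels, was measured on one-colour Agilent arrays. The spot intensity values were deposited as scanner output and are background-corrected per the file headers, which give Agilent Feature Extraction 10.7.3.1 as the software; the submitters' processing notes give 10.10. A deposited table of log2 values, whose centring is not stated, equals log2 of the processed intensity minus 1 constant per array (slope 1.00); its medians by column were −3.12, −3.11, −3.09 (WT), −3.05, −3.09 and −3.02 (AROM+), and it served as an alternative. The number of arrays limits the precision.

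From 62976 spots per array, 3671 control spots were left out and spots of 1 probe were averaged, giving 55681 probes. The 123 to 192 outlier spots per array were left out only where the probe had an unflagged spot, and otherwise kept. The 75th percentile was taken over all non-control spots, outliers included. Values are log2 of the processed intensity minus the 75th percentile of the array (3698 to 5452). Groups were compared with limma 3.58.1 (lmFit and eBayes) in R 4.3.3 at probe level over 42637 probes, with Benjamini-Hochberg adjustment and a threshold of 0.05; 5982 probes were higher and 12942 lower. A gene of a list is its kept probe of highest mean. RefSeq (GRCm38.p6) gave names through the accession to 26762 probes, through the symbol to 3819 and through a synonym to 639; 24461 stayed unnamed. The fit was tested on simulated data. The p-values set the difference between the groups against the spread between these testes, which eBayes moderates with that of all probes tested.

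The members and lists were chosen with earlier results of these data known. Besides all members, the text names of each list up to 4 genes past the threshold with the largest differences measured on all 6 arrays, up to 2 seen in 1 group only, the 3 nearest named genes of each member, and the brightest marker; other list genes and the flanking genes were chosen after their values were seen. Promoters are those of RefSeq (GRCm38.p6). Other settings were normexp background correction (offset 50), quantile normalization, the deposited log2 table, centring on bright probes, a filter on all 6 arrays or none, 1 probe per gene, the replicate number as a block, an eBayes trend, and leaving out each array.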

Additional observations from a re-analysis of the deposited data

How the results depend on the processing

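No member or list gene that was past the threshold changed direction under any setting. With all 6 arrays, the counts that moved by over 1.5 times were small counts of lower genes, and the cause was not tested. Member genes called lower were 1, against 3, without a filter on dim probes, with the filter on all 6 arrays (which leaves out Saa4, Orm1 and Orm2) and with the replicate block. Acute-phase genes of the decreasing kind called lower were 1, against 2, with normexp, quantile normalization and the eBayes trend. Control genes called lower were 0, against 1, with quantile normalization, the deposited log2 table, no filter and the block, and 2 with centring on bright probes, the filter on all 6 arrays and 1 probe per gene. Receptor genes called lower were 2, against 1, with normexp. Acute-phase genes of the increasing kind called lower were 5, against 3, without a filter.

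When each array was left out in turn, probes called higher ranged from 3817 to 5611 and lower from 6770 to 11419, with the lowest counts without WT replicate 3 and 7638 lower without WT replicate 1. Higher and lower calls ranged from 2 to 3 and 1 to 3 for members, 6 to 8 and 2 to 5 for the increasing kind, 2 to 4 and 1 to 2 for the decreasing kind, 14 to 16 and 0 to 2 for control genes, 11 to 13 and 1 to 1 for receptors, and 1 to 2 and 2 to 4 for chitinase-like genes.

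Replicate numbers did not pair the testes: same-numbered WT and AROM+ testes had correlated deviations of 0.0518, −0.154 and 0.0437. With the replicate block, 5069 probes were higher and 10038 lower. Among members the block ended the calls of Saa2 and Orm1. Not every testis correlated best with its own number. Saa4, Orm1, Orm2 and Chi3l1 lie near background, where the number and brightness of spots limit what can be measured.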
